A study of Homo sapiens with 6 samples.

Results

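The genes described here are the 4 TCF/LEF factors (LEF1, TCF7, TCF7L1, TCF7L2), CTNNB1, which encodes beta-catenin, the destruction complex genes AXIN1, AXIN2, APC and GSK3B, and the feedback gene NKD1. They were listed by name and role, with earlier results of these data known, and Ensembl identifiers were matched to gene symbols. All 10 were found among the 63140 genes of the count table, and all 10 passed the filter on low counts that left 17427 tested genes.

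Beta-catenin is the transcriptional arm of canonical Wnt signalling. Without a Wnt signal, a destruction complex built on the scaffolds AXIN1, AXIN2 and APC holds beta-catenin for phosphorylation by casein kinase and GSK3B, and the marked protein is degraded. When the complex is held back, beta-catenin enters the nucleus and binds the TCF/LEF factors, a family of HMG-box proteins that sit on Wnt-responsive genes and repress or activate them. AXIN2 and NKD1 are themselves switched on by the pathway and feed back to damp it. LEF1, CTNNB1 and AXIN2 have each been studied as targets of miR-34a, a microRNA whose gene is activated by p53.

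The cells were HEK293T, an immortalised human embryonic kidney line that carries the SV40 large T antigen. One group was transfected with a miR-34a duplex (3 libraries) and the other with AllStars, a commercial negative control (3 libraries); both were otherwise untreated as far as the labels say. Total RNA was taken 18 h after transfection and sequenced in bulk, with the replicates given as biological. The library totals ran from 24728662 to 36650331 counts. Of 7 genes that HEK293T cells are known to express, 7 were at 1 CPM or more in every library, and of 8 markers of other cell types 7 were below 1 CPM in every library. The exception, COL1A1, stood at 21.2 to 23.3 CPM with miR-34a and at 21.3 to 27.3 CPM in the control. CPM is edgeR's depth-scaled count, taken over the TMM-scaled library size. In bulk RNA, fewer cells that express a gene and less RNA per cell cannot be told apart.

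A microRNA pairs with its targets mainly through its seed, bases 2 to 8 from its 5′ end, and 3′ UTR matches to the seed are graded by length. The guide strand of the duplex, miR-34a-5p, is shown first with the seed in capitals, as RNA, from RefSeq (GRCh38.p14, chr1:9151735-9151756, minus strand). Below it stand the matches of 7 bases or more that were found in the 3′ UTRs of the 10 genes, each in a 30-base window that ends opposite base 1 of the microRNA, 5′ to 3′ on the mRNA strand, written as DNA with the match in capitals. These windows come from GENCODE release 29 transcripts on GRCh38.
miR-34a-5p: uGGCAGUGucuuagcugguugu
LEF1 8mer: gacgctgatccataaagacaatCACTGCCA
TCF7 8mer: tctacccatctcccccatccccCACTGCCA
AXIN2 7mer-A1: aagatgctgcctgtatttgagagACTGCCA
AXIN2 7mer-m8: gggccctgaggcctgctagaatCACTGCCg
NKD1 7mer-m8: gccattccagaggagcagttgcCACTGCCc
NKD1 7mer-A1: taaagtacaacagccttggaggaACTGCCA

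An 8mer is CACTGCCA, a 7mer-m8 CACTGCC without the last A, a 7mer-A1 ACTGCCA without the first C, and a 6mer ACTGCC alone. Only the mRNA strand was searched, and each position was counted once, under its longest class. All 6 matches lie in the last exon of their gene. The LEF1 window is chr4:108048561-108048590 (minus strand), with the 8mer 190 nt after the stop codon. The TCF7 window is chr5:134146871-134146900 (plus strand), 372 nt after the stop codon. The AXIN2 windows are chr17:65529694-65529723 and chr17:65529130-65529159 (minus strand), with the 7mer-A1 starting 276 nt and the 7mer-m8 839 nt after the stop codon. NKD1, whose annotated 3′ UTR is 15468 nt long, has its matches far from the coding region, 4002 and 6393 nt after the stop codon (chr16:50637761-50637790 and chr16:50640151-50640180, plus strand), and a 6mer at 9189 nt.

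No match of 6 or more bases was found in the 3′ UTR searched of TCF7L1, TCF7L2, CTNNB1, AXIN1, APC or GSK3B. The GSK3B transcript with the longest coding sequence has a 3′ UTR of only 81 nt; another of its coding transcripts has one of 5465 nt, with a pair of 6mers. None of the 10 genes had a 7mer or 8mer match in the coding sequence or 5′ UTR of the transcript searched. For comparison, 5.25% of 12937 classed genes had an 8mer as their strongest match, 10.3% a 7mer-m8 and 5.4% a 7mer-A1. With RNAduplex, a program that predicts the pairing of 2 RNA strands, the predicted free energy with miR-34a-5p was -16.2 kcal/mol for the LEF1 window, -14.5 for TCF7, -22.9 for each AXIN2 window, and -20.5 (7mer-m8) and -22.1 (7mer-A1) for NKD1. LEF1, with the largest change below, and TCF7, which did not pass the test below, thus had weaker predicted pairing than these AXIN2 and NKD1 windows. Whether the predicted energy relates to the change was not tested.

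**Figure D1:**
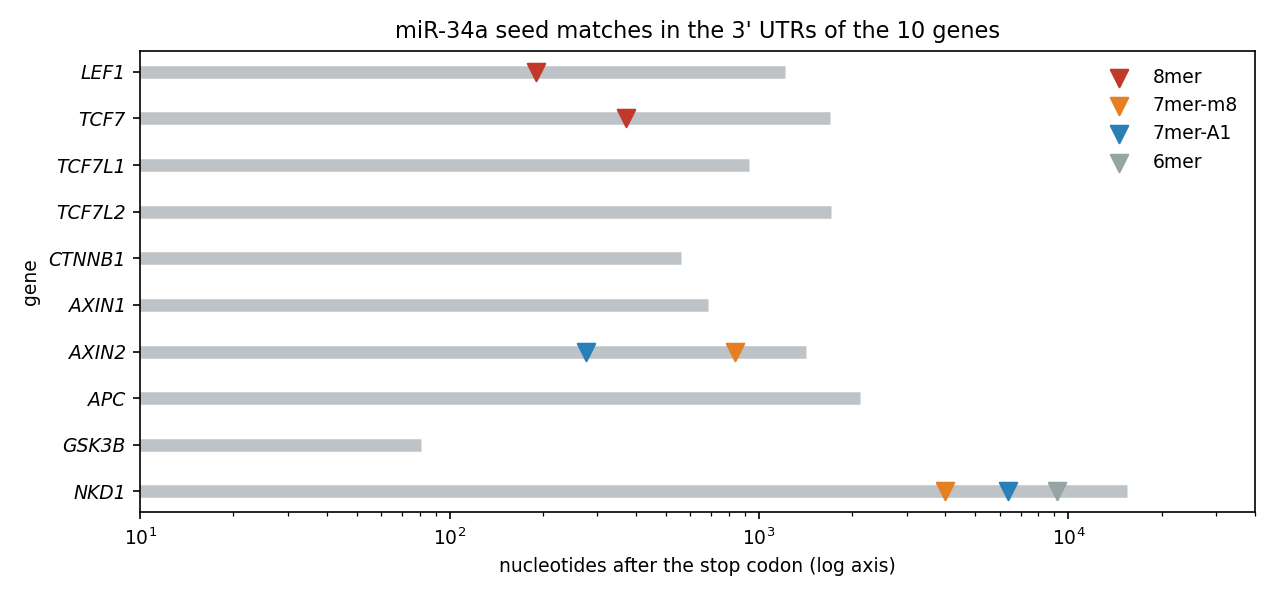
Seed matches for miR-34a-5p (triangles, coloured by class) along the 3′ UTR searched of each of the 10 genes (grey bars); the x axis is the distance from the stop codon in nucleotides, on a log scale cut off at 10 nt. LEF1 and TCF7 each hold 1 8mer, AXIN2 and NKD1 hold 7mers, and the other 6 genes hold none.

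Of the 10 genes, 3 fell with miR-34a (LEF1, TCF7L1 and AXIN2) and 0 rose. Among all tested genes 6.7% fell and 5.38% rose (edgeR quasi-likelihood test, Benjamini-Hochberg adjusted p under 0.05, all tested genes adjusted together). The same 3 genes were the ones whose miR-34a libraries all lay below all control libraries, which was the case for 14.2% of tested genes; 0 of the 10 lay all above, against 13.1% of tested genes, and the groups of the other 7 overlapped. The median log2 fold change, miR-34a over control, was -0.11 over the 10 genes and -0.004 over all tested genes. CTNNB1, by far the most abundant of them, and the destruction complex genes APC, GSK3B and AXIN1 did not pass the test.

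LEF1, a TCF/LEF factor that mostly acts as an activator with beta-catenin, showed the largest fall of the 10. Its level was 20.4, 19.7 and 17.8 CPM in the miR-34a libraries, against 35.4, 32.2 and 35.8 CPM in the control libraries. The highest miR-34a library thus lay well under the lowest control library. The log2 fold change was -0.84 ± 0.09 (SE; edgeR adjusted p = 1.3e-07), which leaves 55.9% of the control level. Only 1.22% of all tested genes, and 5.15% of the 679 genes with an 8mer, had a lower log2 fold change. LEF1 shares 5.2% of its exonic length with LEF1-AS1 on the opposite strand, which averaged 0.535 CPM with miR-34a and 0.458 CPM in the control. How reads common to both were counted is not given, and the effect of the overlap was not tested.

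TCF7, the factor also called TCF1, holds the same 8mer as LEF1 in the transcript searched and did not pass. In both genes only some of the annotated coding transcripts (9 for TCF7, 5 for LEF1) held the 8mer in the 3′ UTR. Which of these transcripts the cells expressed was not tested. It stood at 17.5, 19.0 and 20.7 CPM in the miR-34a libraries, against 18.2, 21.5 and 22.3 CPM in the control libraries. The 2 ranges overlap over most of their width. The log2 fold change was -0.12 (95% interval -0.32 to 0.09; edgeR adjusted p = 0.52), and 53.8% of genes with an 8mer had a lower one. The log2 ratio of LEF1 to TCF7 counts within a library averaged 0.016 with miR-34a and 0.741 in the control, a difference of -0.73 (exact two-sided permutation p = 0.1, the smallest that 3 libraries against 3 allow; 0.133 adjusted over the 4 ratios computed).

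TCF7L1, also called TCF3, which acts mainly as a repressor of Wnt-responsive genes, fell as well. It had 7.11, 9.45 and 7.60 CPM with miR-34a, against 11.7, 12.4 and 12.9 CPM in the control. The miR-34a libraries were lower throughout, with replicate 2 nearest to the control. The log2 fold change was -0.62 ± 0.12 (SE; edgeR adjusted p = 0.00091). No seed match of 6 or more bases stands in its 926 nt 3′ UTR, and 1.62% of the 8934 no-match genes had a lower log2 fold change. The gene has 1 coding transcript in the annotation searched, so no other 3′ UTR was available to search. Its counts were 179 to 281 reads per miR-34a library and 286 to 415 per control library.

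TCF7L2, the factor also called TCF4, did not pass. Its libraries lay at 32.5, 33.0 and 33.6 CPM with miR-34a and at 34.2, 30.5 and 33.0 CPM in the control, with a log2 fold change of 0.02 (95% interval -0.14 to 0.18; edgeR adjusted p = 0.91). The miR-34a values fell inside the range of the control. The log2 ratio of LEF1 to TCF7L2 counts averaged -0.779 with miR-34a and 0.081 in the control, a difference of -0.86 (exact permutation p = 0.1, the smallest possible; 0.133 adjusted over the 4 ratios), while that of TCF7 to TCF7L2 averaged -0.795 with miR-34a and -0.661 in the control, a difference of -0.13 (exact permutation p = 0.4, also 0.4 adjusted).

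**Figure D2:**
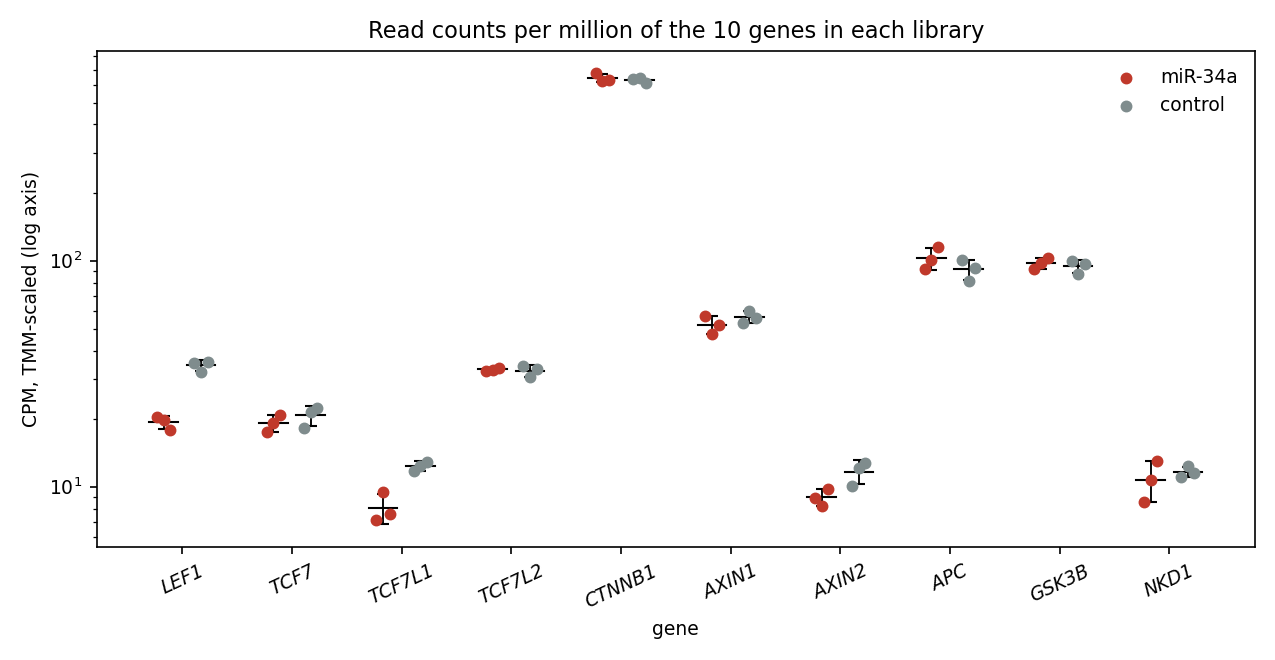
CPM (TMM-scaled, log axis) of the 10 genes in each library, miR-34a in red to the left of the control in grey; points are libraries, black lines the mean and bars the SD (n = 3 per group). The groups are apart for LEF1, TCF7L1 and AXIN2 and overlap for the other 7.

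Set against exon length, the order of the TCF/LEF factors differed between the groups. LEF1 averaged 3.60 ± 0.255 CPM per kb of exon with miR-34a and 6.43 ± 0.362 CPM per kb in the control (SD, n = 3), and TCF7L2 averaged 4.90 ± 0.0757 CPM per kb with miR-34a and 4.84 ± 0.279 CPM per kb in the control. LEF1 was thus under TCF7L2 in the miR-34a libraries and over it in the control libraries, with no overlap of the 2 genes in either group. TCF7L1 averaged 1.82 ± 0.280 CPM per kb with miR-34a and 2.79 ± 0.137 in the control, and TCF7 averaged 1.90 ± 0.161 with miR-34a and 2.05 ± 0.217 in the control.

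As a share of the summed TCF/LEF mRNA per length, LEF1 made up 29.4 ± 2.18% with miR-34a and 39.9 ± 1.05% in the control, and TCF7L2 made up 40.1 ± 1.2% with miR-34a and 30.02 ± 1.25% in the control (SD, n = 3). The sum itself was 12.2 ± 0.329 CPM per kb with miR-34a and 16.1 ± 0.614 CPM per kb in the control. With the length of 1 chosen transcript per gene in place of all exons, the LEF1 share was 27.5 ± 2.24% with miR-34a and 37.9 ± 1.32% in the control, so the swap of LEF1 and TCF7L2 did not rest on the length used. TCF7 depended on it more: its share was 15.5 ± 1.35% with miR-34a and 12.8 ± 1.36% in the control over all exons, and 25.1 ± 1.94% with miR-34a and 21.0 ± 2.07% in the control with the chosen transcript.

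**Figure D3:**
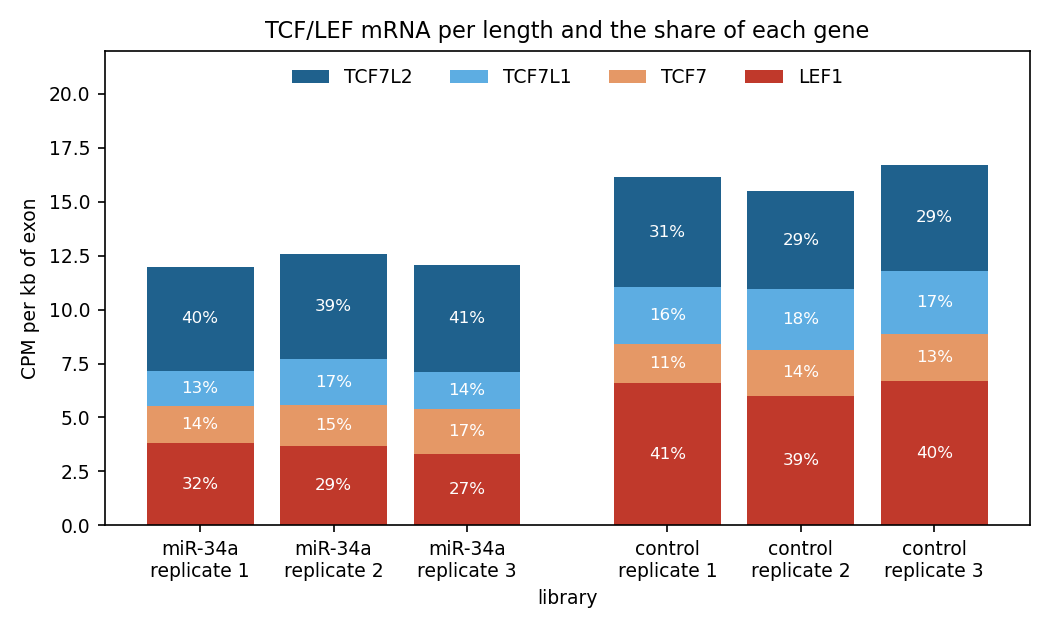
CPM per kilobase of exon of the 4 TCF/LEF genes, stacked, in each library (miR-34a left, control right); percentages are each gene's share of the library's sum. The LEF1 share is 27 to 32% in the miR-34a libraries and 39 to 41% in the control libraries.

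CTNNB1 was the most abundant of the 10 genes per length and did not pass. It had 674, 624 and 630 CPM with miR-34a, against 636, 640 and 612 CPM in the control. Its log2 fold change was 0.03 (95% interval -0.11 to 0.17; edgeR adjusted p = 0.84). With 15562 to 23310 reads per library, counting error was small beside the spread between libraries. None of its 39 annotated coding transcripts held a seed match of 6 or more bases in the 3′ UTR. The counts are of mRNA, and the protein, which the destruction complex controls, was not measured.

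Of the destruction complex, the scaffold APC, the largest protein of the complex, had 92.1, 100.4 and 114 CPM with miR-34a, against 100.5, 81.3 and 92.5 CPM in the control. The groups overlap, and the log2 fold change of 0.16 (95% interval -0.01 to 0.34; edgeR adjusted p = 0.23) did not pass. It passed when control replicate 1, its highest control library, was left out (0.24, edgeR adjusted p = 0.047; 0.047 to 0.68 over the 12 alternatives). GSK3B, the kinase that marks beta-catenin for degradation, had 91.9, 98.0 and 103 CPM with miR-34a and 99.2, 87.0 and 96.7 CPM in the control (log2 fold change 0.05, 95% interval -0.10 to 0.20). AXIN1, the constitutive scaffold, had 56.6, 47.2 and 52.1 CPM with miR-34a and 53.0, 59.8 and 55.8 CPM in the control (log2 fold change -0.11, 95% interval -0.28 to 0.05). Neither passed (edgeR adjusted p = 0.73 and 0.41), and in both genes the groups overlap.

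AXIN2, the inducible scaffold and a widely used readout of Wnt activity, fell, though narrowly past the threshold. Its level was 8.90, 8.22 and 9.79 CPM with miR-34a, against 10.1, 12.1 and 12.8 CPM in the control. The groups do not overlap, but miR-34a replicate 3 and control replicate 1 lie close together. The log2 fold change was -0.38 ± 0.12 (SE; edgeR adjusted p = 0.040), and 15.4% of the 1328 genes whose strongest match was a 7mer-m8 had a lower one. The call was lost without control replicate 2 (edgeR adjusted p = 0.14), control replicate 3 (0.21), miR-34a replicate 1 (0.089) or miR-34a replicate 2 (0.18), and with library size alone (0.060) or DESeq2 (0.064); over the 12 alternatives the log2 fold change ran from -0.46 to -0.31 and the adjusted p from 0.0084 to 0.21.

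The log2 ratio of AXIN2 to AXIN1 counts averaged -2.53 with miR-34a and -2.28 in the control, a difference of -0.26 (exact permutation p = 0.1, the smallest possible; 0.133 adjusted over the 4 ratios). AXIN2 shares 25.2% of its exonic length with a same-strand coding gene, ENSG00000266076, and how reads common to both were counted is not given in the sources used here; that gene had at most 1 count in any library.

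NKD1, a cytoplasmic inhibitor that binds Dishevelled, did not pass. It had 8.54, 10.7 and 12.9 CPM with miR-34a, against 11.1, 12.3 and 11.5 CPM in the control. The miR-34a libraries spread over more than the whole control range. The log2 fold change was -0.11 (95% interval -0.37 to 0.16; edgeR adjusted p = 0.68), and 45.4% of 7mer-m8 genes had a lower one. Its sign turned to 0.03 when miR-34a replicate 1 was left out (edgeR adjusted p = 0.93; 0.24 to 0.93 over the alternatives).

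By level per length in the control, the order was CTNNB1 (52.8 CPM per kb), GSK3B (11.6), AXIN1 (7.51), APC (7.35), LEF1 (6.43), TCF7L2 (4.84), TCF7L1 (2.79), AXIN2 (2.23), TCF7 (2.05) and NKD1 (0.666). AXIN1 overlapped APC, APC overlapped LEF1 and AXIN2 overlapped TCF7, and the other neighbours in this order were apart in every control library. With miR-34a, CTNNB1 (53.9 CPM per kb) and GSK3B (11.97) stayed first, APC (8.22) stood above AXIN1 (6.94), and TCF7L1 (1.82) and AXIN2 (1.72) stood below TCF7 (1.90). In the miR-34a libraries APC overlapped AXIN1, and TCF7, TCF7L1 and AXIN2 overlapped each other. These changes of order depended on the length used. With the length of the chosen transcript, LEF1 (11.2 CPM per kb) stood above APC (8.54) in the control. TCF7 (6.21) then stood above TCF7L1 (4.155) and AXIN2 (2.73) already in the control. By that length APC (9.56) was below AXIN1 (14.3) with miR-34a. NKD1 came last by both lengths (17.425 and 17.105 kb), which both hold its annotated 3′ UTR of 15468 nt. Before division by length, NKD1 averaged 11.6 CPM in the control, near AXIN2 (11.6) and TCF7L1 (12.3). How much of that 3′ UTR the cells expressed was not tested.

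The 10 genes were next set beside all genes of the same site class. Of genes with an 8mer, 27.8% fell and 3.53% rose, with a median log2 fold change of -0.14; of genes with a 7mer-m8, 17.2% fell and 4.59% rose (median -0.08); of genes with no match, 4.89% fell and 7.4% rose (median 0.01). LEF1 lay below the 10th percentile of the 8mer genes (-0.63) and TCF7 near their median. AXIN2 lay between the 10th percentile (-0.49) and the 25th (-0.25) of the 7mer-m8 genes, and NKD1 near the median. TCF7L1 lay below the 10th percentile (-0.26) of genes with no match, while TCF7L2, CTNNB1, GSK3B and AXIN1 lay between their 25th (-0.12) and 75th (0.14) percentiles and APC just above. GSK3B was classed as a no-match gene by the 81 nt 3′ UTR searched, while another of its coding transcripts holds 6mers.

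**Figure D4:**
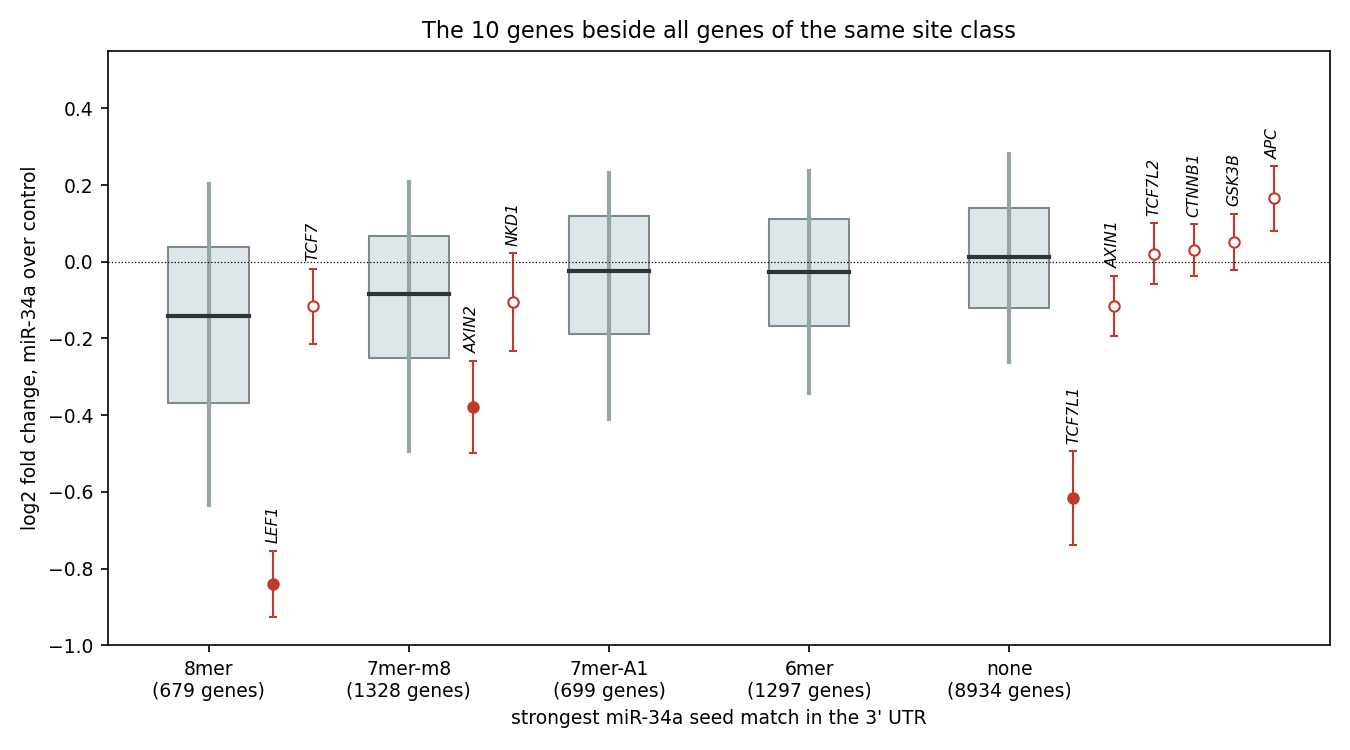
Log2 fold change (miR-34a over control) by strongest seed match in the 3′ UTR searched. Boxes are the 25th to 75th percentile of all classed tested genes, thick lines the median and grey lines the 10th to 90th percentile. Red points are the 10 genes with their SE, filled where they passed the test; LEF1 (-0.84) and TCF7L1 (-0.62) lie below the grey line of their class.

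Other genes of the pathway were taken as 4 lists by role. Of 20 partners of the destruction complex, 1 fell and 1 rose (median log2 fold change 0.03), 5% in each direction, near the 6.7% that fell and 5.38% that rose among all tested genes. AMER1, a scaffold that binds APC and beta-catenin and holds 4 matches of the 7mer or 8mer kind with an 8mer among them, fell to 20.9, 20.3 and 23.4 CPM with miR-34a, against 43.1, 34.5 and 39.2 CPM in the control (-0.85 ± 0.09 SE; edgeR adjusted p = 2.5e-07). This lies next to the value of LEF1 (-0.84). TNKS2, a tankyrase that marks axin for degradation, rose (146 ± 10.6 CPM with miR-34a and 119 ± 7.99 CPM in the control; SD, n = 3 each; log2 fold change 0.30, edgeR adjusted p = 0.0066).

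Among 20 nuclear cofactors of beta-catenin and TCF, 2 fell and 4 rose (median -0.001), which is 10% and 20% of the list, beside 6.7% and 5.38% of all tested genes. PYGO2 and BCL9L, which join beta-catenin to the transcription machinery and each hold a 7mer-m8, fell by 0.41 and 0.49 on the log2 scale (edgeR adjusted p = 0.00034 and 0.0055). TLE4, a Groucho co-repressor that binds TCF factors, rose to 242 ± 7.63 CPM with miR-34a, against 198 ± 0.357 CPM in the control, a log2 fold change of 0.29 (edgeR adjusted p = 0.0038). CBY1, an antagonist of beta-catenin with a 7mer-m8, and TBL1X, a cofactor subunit, rose, with log2 fold changes of 0.33 and 0.22 (edgeR adjusted p = 0.016 and 0.039). CDC73, a subunit of the PAF1 complex named after its value was seen, rose by the same test (0.21, edgeR adjusted p = 0.046). These 3 calls were less firm: CBY1 lost its own without miR-34a replicate 2 (edgeR adjusted p = 0.15; 0.0064 to 0.15 over its 12 alternatives). TBL1X lost its call in 4 of the 6 fits with a library left out, those without replicate 2 or 3 of either group (edgeR adjusted p 0.012 to 0.17 over its 12 alternatives). CDC73 lost its call in 5 of the 6, all but that without control replicate 1 (0.010 to 0.23 over its alternatives). The count of cofactors that rose was 2 without control replicate 2, control replicate 3 or miR-34a replicate 3, and 1 without miR-34a replicate 2.

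Of 27 genes listed as transcriptional targets of the pathway in various tissues, 21 were tested; 6 fell and 1 rose (median -0.17). These are 28.6% and 4.76% of those tested, beside 6.7% and 5.38% of all tested genes. This list holds genes with miR-34a matches of their own: 4 of the 6 that fell had a 7mer or 8mer, as had 4 of the 14 that did not pass, 1 of which (DACT1) had no 3′ UTR classed. EPHB2, an ephrin receptor with an 8mer, had 15.1 ± 0.508 CPM with miR-34a and 23.8 ± 2.34 CPM in the control (SD, n = 3 each; log2 fold change -0.66, edgeR adjusted p = 2.1e-05). CCND1, cyclin D1, with a 7mer-A1, had 10.6 ± 1.45 CPM with miR-34a and 17.7 ± 0.195 CPM in the control (-0.74, edgeR adjusted p = 2.6e-05). ZNRF3, a ubiquitin ligase that removes Wnt receptors, also holds a 7mer-A1. It had 31.6 ± 1.99 CPM with miR-34a and 44.8 ± 2.49 CPM in the control (-0.50, edgeR adjusted p = 6.6e-05). MYC, a growth-promoting transcription factor, has a 6mer as its strongest match. It had 106 ± 2.25 CPM with miR-34a and 138 ± 5.22 CPM in the control (-0.38, edgeR adjusted p = 0.00023). TNFRSF19, a receptor of the tumour necrosis factor family with no match, rose. It had 12.9 ± 0.413 CPM with miR-34a and 8.43 ± 0.521 CPM in the control (0.61, edgeR adjusted p = 0.00034).

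NKD2, the paralogue of NKD1 and named here after its value was seen, holds an 8mer and fell, with 9.06 ± 0.263 CPM with miR-34a and 13.5 ± 1.63 CPM in the control (-0.58, edgeR adjusted p = 0.00096); whether the paralogues differ was not tested. Of 9 tested partners of beta-catenin at cell junctions, 1 fell and 0 rose (median -0.06), beside 6.7% and 5.38% of all tested genes. The gene that fell was VCL, vinculin, which links catenins to actin and holds a 7mer-m8. It had 123 ± 1.81 CPM with miR-34a and 179 ± 9.69 CPM in the control (-0.54, edgeR adjusted p = 3.2e-06).

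**Figure D5:**
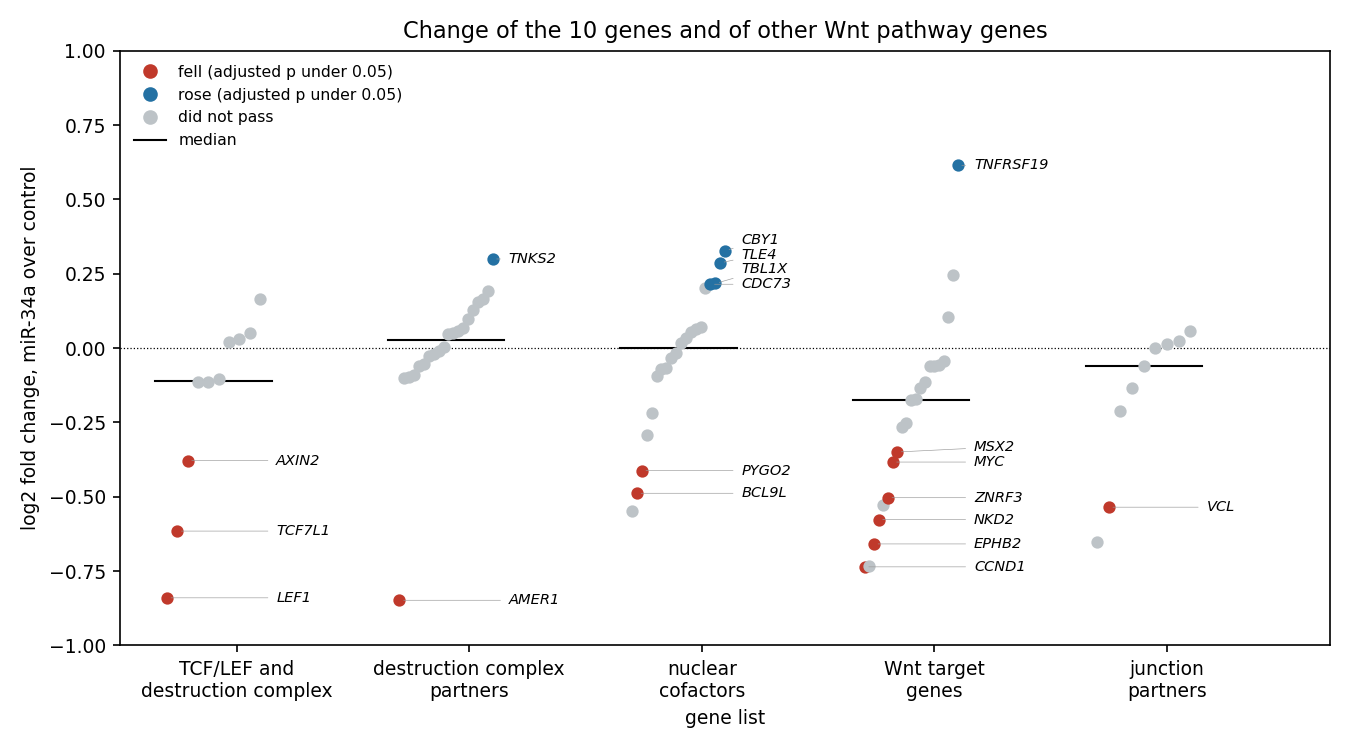
Log2 fold change (miR-34a over control) of the tested genes in the 10-gene set and in 4 further lists of Wnt pathway genes; each point is a gene, coloured red where it fell and blue where it rose past the threshold, and black lines are list medians. AMER1 (-0.85) lies as low as LEF1 (-0.84), TNFRSF19 (0.61) lies highest, and most points are grey.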

How the data were processed

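The authors deposited unnormalized counts of reads for each Ensembl gene and library. The submitters' processing notes list edgeR 3.42.4, STAR 2.7.11a, Subread 2.0.3 and featureCounts and the build GRCh38; which annotation release, strand setting and multi-mapping rule were used is not given here. Per the labels' protocols the libraries were TruSeq RNA v2. Counts were filtered with filterByExpr (minimum count 10, total 15), scaled by TMM (factors 0.981 to 1.02) and fitted with edgeR 4.0.16 (R 4.3.3), group as the only term, adjusted p under 0.05. SE is the log2 fold change over the root of the F statistic; 95% intervals use the fit's total degrees of freedom. No pair of replicates agreed within sampling noise (chi-square per degree of freedom 8.39 to 15.98). Seed matches were searched in the 3′ UTR (at least 50 nt) of the GENCODE 29 transcript with the longest coding sequence; no transcript carries a MANE tag there. RNAduplex is from ViennaRNA 2.7.2. The test was checked on simulated counts. Alternatives were DESeq2 1.42.0, other scalings and filters, a replicate block and leaving out each library. All 10 genes are named, with up to 5 called genes per further list by lowest adjusted p, and tested genes that overlap a member's exons; SKP1, which shares 2.09% of TCF7's exonic length, did not pass (log2 fold change 0.10). The members and lists were chosen with earlier results of these data known.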

Additional observations from a re-analysis of the deposited data

How the results depend on the processing

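LEF1 and TCF7L1 fell under each of the 12 alternatives (log2 fold change -0.89 to -0.78 and -0.74 to -0.54). Among the 10 genes, 3 or 2 fell with single libraries left out, and 0 or 1 rose; 2 fell with DESeq2 or library size alone. Over all genes, leaving out single libraries gave 727 to 1394 that fell (lowest without miR-34a replicate 2) and 525 to 1287 that rose (525 without control replicate 2, 606 without control replicate 3, 604 without miR-34a replicate 2). With DESeq2, 2 destruction complex partners rose. With single libraries left out, 1 to 4 nuclear cofactors rose, and 2 did with the replicate block, where TBL1X and CDC73 did not pass (edgeR adjusted p = 0.094 and 0.092; 0.012 to 0.17 and 0.010 to 0.23 over their alternatives). The replicate block, with replicate number as a term, gave 1023 genes that fell and 807 that rose. It called the same 3 of the 10 genes. Deviations of same-numbered libraries correlated at -0.063, 0.031 and -0.131, and those of differently numbered libraries at -0.116 to 0.174. With 3 libraries per group, these values cannot show whether the numbers pair the samples. The cause of the shifts between fits was not tested. The number of 10 genes with a 7mer or 8mer was 4 for the chosen transcript and 4 when a match in any coding transcript counted. Levels per length moved by more than the SD between the length definitions for 9 of the 10 genes. The exception was NKD1, for which both definitions hold the same 15468 nt 3′ UTR. AXIN2, TCF7L1 and NKD1, at 179 to 479 reads per library, carry the widest intervals.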

Other observations

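The passenger strand of the duplex, miR-34a-3p, has its own seed, matched by GCTGATTA (8mer), GCTGATT (7mer-m8) and CTGATTA (7mer-A1). Of the 10 genes, TCF7L2 alone had such a match in the 3′ UTR searched, a 7mer-A1, and TCF7L1, which fell without a guide-strand match, had none. This search was added after the values were seen.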
